A study of Mus musculus with 8 samples.

Results

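Colon RNA of mice colonized with either of a pair of Candida species was compared with colon RNA of uncolonized controls, with both species pooled as 1 colonized group. The comparison used all 8 libraries of the series: 5 colonized libraries against 3 control libraries, over every gene in the table. The mice were germ-free C57BL/6 females of wild-type genotype, 6 weeks old, kept in gnotobiotic isolators. Of the colonized libraries, 3 came from mice given C. albicans strain SC5314 by gavage and 2 from mice given C. tropicalis strain MYA-3404, all sampled 30 days into the experiment by the titles. The labels give controls as a treatment and do not say whether they received a mock gavage. Nothing in them states that replicates came from different animals, and the p-values therefore measure the spread between these libraries alone, part of which may be technical. Hour of collection, cage and isolator are not in the labels, so any difference in them between groups cannot be told apart from colonization.

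Libraries held 16195376 to 19761098 counts on genes, and 15704 genes passed the filter on low counts. Levels are given as CPM, the count scaled to a common library total after TMM normalization (a trimmed mean of ratios between libraries). CPM is not divided by gene length, so levels are compared between libraries and not between genes. Of the 30 members of a colonocyte transport list 29 were at 1 CPM or more in all 8 libraries. So was Muc2, the main secreted mucin of goblet cells, at 2198 to 6404 CPM. The Paneth cell defensins Defa24, Defa17 and Defa30 of the small intestine had no count in any library. Other members of the small intestine and caecum list were present. Of its 25 members 11 were at 1 CPM or more in all 8 libraries, and the list summed to 804 to 1668 CPM. Smooth muscle transcripts, summed over their list, ranged from 11710 to 21490 CPM in controls and from 7101 to 42670 CPM in colonized libraries, so the amount of muscle RNA differed between libraries. In bulk tissue, fewer cells of a type and less RNA per cell cannot be told apart.

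The libraries also fell into 2 sets by their counts on ribosomal RNA (rRNA) genes, a property that is not in the labels. Control 1, C. albicans 1 and C. albicans 3 had 56.9 to 74.0 CPM on these genes, and the other 5 libraries had 1558 to 2456 CPM. Among 14311 tested genes with a mean of at least 1 CPM, 21 were more than 3-fold lower in each of the 3 libraries than in each of the other 5, and 0 were more than 3-fold higher. They included mt-Rnr1, mt-Rnr2, Rpl12, Lars2, the rRNA processing genes Rrp1, Rrp12 and Rrp15, and Hsp90aa1. Each set holds controls and colonized libraries, both C. tropicalis libraries lie in the larger one, and the split was seen only after the data were examined. Of the 21 genes only Hsp90aa1 is a member of a gene list used here, and 0 of them passed an adjusted p of 0.1 in the comparison of colonized with control.

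**Figure D1:**
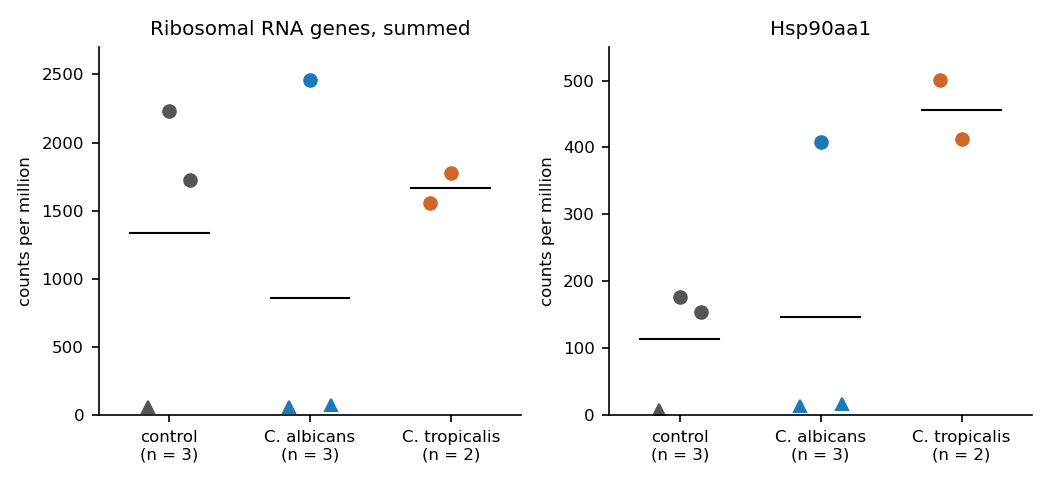
Summed CPM of rRNA genes (left) and CPM of Hsp90aa1 (right) in each library by group, with group means as black lines. Triangles are the 3 libraries with few rRNA counts (56.9 to 74.0 CPM) and circles the 5 with more (1558 to 2456 CPM). Hsp90aa1 lies at 7.95 to 16.6 CPM in the triangles and at 154 to 500 CPM in the circles, and within each set the controls lie lowest.

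The circadian clock of mammalian cells is a feedback loop of transcription. BMAL1 (the product of Arntl) pairs with CLOCK or NPAS2 and activates the Per and Cry genes through E-box elements, and PER and CRY proteins then inhibit that activation. REV-ERB proteins repress Arntl, and the bZIP factors DBP, TEF and HLF carry the rhythm to output genes through D-box elements. In the intestine the loop runs in epithelium and other layers and follows feeding as well as light. In the heat shock response, HSF1 binds heat shock elements and induces chaperones, among them the HSP70 and HSP110 families, which keep proteins folded. Per2 is known as a gene that HSF1 can also induce.

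The colonized group differed from control in 3 genes at an adjusted p under 0.05 (edgeR quasi-likelihood test, Benjamini-Hochberg over all 15704 genes), and all 3 rose: Per2, Rbm14 and Hsph1. They are 0.0191% of the tested genes. Per2 encodes a repressor of the clock loop, Rbm14 an RNA-binding coactivator that takes part in paraspeckles, and Hsph1 the HSP110 co-chaperone that exchanges nucleotide on HSP70. The level of Per2 rose 4.97-fold, that of Hsph1 5.17-fold and that of Rbm14 2.42-fold. No gene fell at this threshold (0 genes, smallest adjusted p 0.121 for Npas2), although 640 genes were lower and 846 were higher at an unadjusted p under 0.05, which is 4.08% and 5.39% of those tested. Unless another tool is named, called, passed and adjusted p refer to this edgeR test. The DESeq2 test, run as an alternative, called 152 genes higher and 40 lower, including these 3, which is 1.23% and 0.324% of the 12348 genes to which it gave an adjusted p, and limma-voom called 2, Per2 and Hsph1. The median log2 difference over all tested genes was 0.0061, with 7999 genes above and 7705 below control.

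Promoter windows are shown for Rbm14 and Hsph1, which were called, and for a further heat shock and a further clock gene past an adjusted p of 0.1, Chordc1 and Per3, since E-boxes, D-boxes and heat shock elements are the sequences through which the clock and HSF1 are known to act. Each is 250 bases before to 50 after a start in RefSeq (GRCm38.p6), on the gene's strand, and capitals mark a match on either strand to CACGTG (E-box), TTATGTAA (D-box), GAANNTTC (a pair of heat shock half-sites), TGACGTCA (cyclic AMP response element) or ACANNNTGT (glucocorticoid response element core). Rbm14 (chr19:4811585-4811884, minus strand) matched none of the 5, Hsph1 (chr5:149636287-149636586, minus strand) an E-box and a heat shock pair, Chordc1 (chr9:18292017-18292316, plus strand) heat shock pairs 2 times, and Per3 (chr4:151044616-151044915, minus strand) the D-box 2 times. Per2 has no entry in the table used.
Rbm14: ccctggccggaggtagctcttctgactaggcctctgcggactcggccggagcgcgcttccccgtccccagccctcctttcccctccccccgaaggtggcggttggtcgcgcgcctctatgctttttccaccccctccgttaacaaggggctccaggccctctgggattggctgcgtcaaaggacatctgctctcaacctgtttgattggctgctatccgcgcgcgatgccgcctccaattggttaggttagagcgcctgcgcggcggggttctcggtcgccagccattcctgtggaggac
Hsph1: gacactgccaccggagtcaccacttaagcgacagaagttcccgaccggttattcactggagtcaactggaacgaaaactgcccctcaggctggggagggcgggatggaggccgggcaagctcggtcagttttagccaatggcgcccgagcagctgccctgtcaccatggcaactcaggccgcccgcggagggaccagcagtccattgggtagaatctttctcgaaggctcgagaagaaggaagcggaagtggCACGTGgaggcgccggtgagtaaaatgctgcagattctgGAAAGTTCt
Chordc1: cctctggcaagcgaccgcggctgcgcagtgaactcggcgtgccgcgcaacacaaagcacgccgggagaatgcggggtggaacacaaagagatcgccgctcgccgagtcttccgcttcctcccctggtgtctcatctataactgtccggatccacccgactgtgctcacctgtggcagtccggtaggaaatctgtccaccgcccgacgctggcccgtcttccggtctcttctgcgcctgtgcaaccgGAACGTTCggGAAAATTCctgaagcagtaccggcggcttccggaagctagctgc
Per3: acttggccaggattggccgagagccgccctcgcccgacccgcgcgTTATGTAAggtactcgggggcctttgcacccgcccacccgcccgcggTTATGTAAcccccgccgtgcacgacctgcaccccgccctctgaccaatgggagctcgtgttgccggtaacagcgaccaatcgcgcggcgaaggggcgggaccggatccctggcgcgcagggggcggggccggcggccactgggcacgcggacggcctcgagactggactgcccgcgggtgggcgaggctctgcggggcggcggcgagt
Over the 20296 genes with a window, 7.69% held the E-box letters, 0.916% the D-box, 7.47% the heat shock pair, 2.24% the cyclic AMP element and 6.08% the glucocorticoid core. Over the 11658 of them that were tested for expression the shares were 9.8%, 0.523%, 5.63%, 3.05% and 4.3%. Among windows of other named genes, those of Tef and Per1 held an E-box, that of Dnaja1 a heat shock pair and that of Hspa5 none of the 5. The Per1 window lies 3732 bases from the gene start in GENCODE. Windows were matched for 10 of the 12 genes past an adjusted p of 0.1, and those not named here are not described. A share over the clock or heat shock list is not given, because windows were matched for 18 of 23 clock and 19 of 24 heat shock members, under 80%. These matches are descriptions of letters in the windows and not sites shown to be bound.

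Per2 (chromosome 1, 91415982 to 91459324, minus strand, GENCODE M21 on GRCm38) stood at 35.1, 40.4 and 30.0 CPM in controls 1 to 3. In the colonized libraries it stood at 143, 131 and 174 CPM with C. albicans and at 259 and 167 CPM with C. tropicalis. Every colonized library lay more than 3 times above the highest control. Its log2 difference was 2.31 ± 0.24 (SE, 3 control and 5 colonized libraries, adjusted p = 0.0400). Hsph1 (chromosome 5, 149614287 to 149636376, minus strand) had 37.6, 32.9 and 27.6 CPM in controls, against 122, 236 and 188 CPM with C. albicans and 186 and 113 CPM with C. tropicalis. Here too the groups were far apart, with a log2 difference of 2.37 ± 0.27 (SE, adjusted p = 0.0432). Rbm14 (chromosome 19, 4800569 to 4811634, minus strand) was the tightest of the 3 among controls, at 18.6, 20.6 and 18.5 CPM. With C. albicans it reached 36.7, 46.6 and 47.6 CPM, and with C. tropicalis 53.0 and 49.0 CPM. Its log2 difference was 1.27 ± 0.14 (SE, adjusted p = 0.0400). The library kit does not keep strand, but genes that overlap Rbm14 carried few counts, 107 for Gm21992 on the same strand and 11 for Gm21844 on the other, against 5130 for Rbm14.

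**Figure D2:**
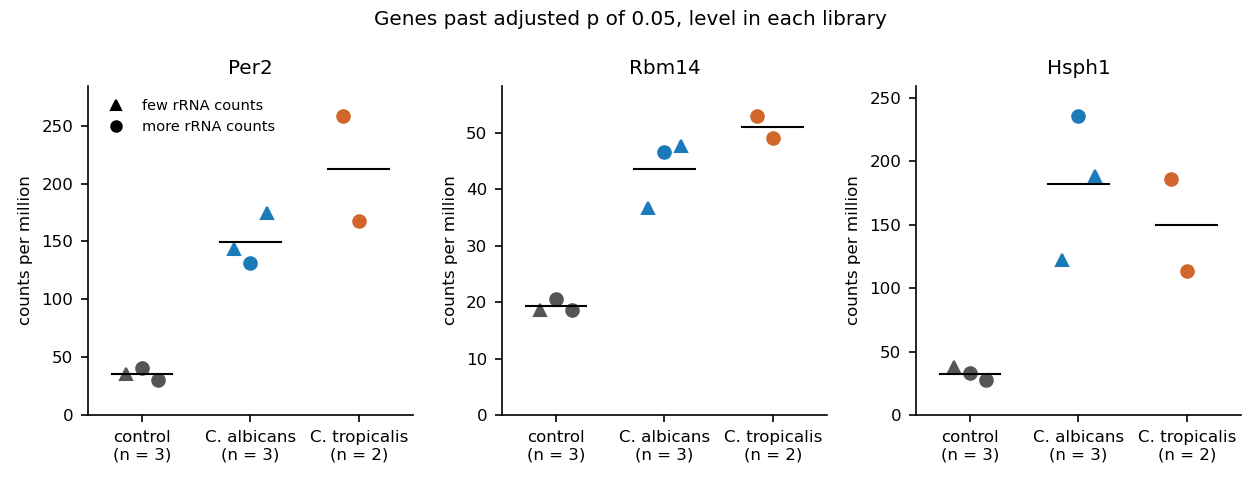
CPM of Per2, Rbm14 and Hsph1 in each of the 8 libraries by group, with group means as black lines and axes from 0. Triangles are the 3 libraries with few rRNA counts and circles the other 5. In each panel all 5 colonized libraries lie above all 3 controls, and for Per2 the lowest colonized library (131 CPM) stands above the highest control (40.4 CPM).

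The size of these differences moved little when 1 library was left out, while the calls did not hold. The log2 difference ranged from 2.13 to 2.44 for Per2, from 2.22 to 2.49 for Hsph1 and from 1.22 to 1.37 for Rbm14 over the 8 fits. Leaving out control 1, control 2, control 3, C. albicans 3 or C. tropicalis 2 left 0 genes called, leaving out C. albicans 1 left Rbm14, leaving out C. tropicalis 1 left Per2, and leaving out C. albicans 2 left Per2 and Hsph1. With the rRNA set as a term in the fit the 3 log2 differences were 2.32 ± 0.25 for Per2, 2.37 ± 0.28 for Hsph1 and 1.28 ± 0.13 for Rbm14, with adjusted p of 0.0822, 0.110 and 0.0822 and 0 genes called (1418 at an unadjusted p under 0.05). Within the 5 libraries with more rRNA counts (2 control, 3 colonized) they were 2.42, 2.59 and 1.36, with an adjusted p of 0.765 each and again 0 calls (805 at an unadjusted p under 0.05). Within the other 3 libraries (1 control, 2 colonized), too few for a test, they were 2.18, 2.05 and 1.18.

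At an adjusted p under 0.1, 12 genes were higher and 0 lower, 0.0764% of those tested, and the 9 added to the 3 above missed the threshold of 0.05. They were Slc5a3, Chordc1, Banp, Per3, Coq10b, Dnaja1, Tef, Hspa5 and C2cd4a, with adjusted p of 0.0834 to 0.0966. Chordc1 and Dnaja1 encode co-chaperones of HSP90 and HSP70, Hspa5 the chaperone BiP of the endoplasmic reticulum, and Per3 and Tef members of the clock network. Slc5a3, a sodium-coupled myo-inositol transporter that cells use against osmotic stress, had 29.8, 36.3 and 28.3 CPM in controls and 63.7, 59.0, 53.1, 64.6 and 61.2 CPM in colonized libraries. It lies over Mrps6 on the same strand, which carried 6079 counts against its 6996, so their reads may not be fully separable. C2cd4a, a nuclear C2-domain gene known to respond to inflammatory cytokines in endothelium, had the largest ratio of highest to lowest colonized library of the 12, with 5.14, 7.62 and 4.85 CPM in controls against 39.5, 64.1 and 43.3 CPM with C. albicans and 31.1 and 17.4 CPM with C. tropicalis. Banp, a nuclear matrix-associated DNA-binding protein, was at 13.2 to 17.7 CPM in controls and 28.9 to 45.8 CPM in colonized libraries. Coq10b, which binds coenzyme Q in mitochondria, was at 13.7 to 17.5 CPM and 26.8 to 38.1 CPM. None of the 12 genes had overlapping groups, against 3.67% of all tested genes with every colonized library above every control. The 12 were chosen by p in these same libraries, which favours such separation, so it is no further support.

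Among clock genes, the Per family, the bZIP factor Tef and several other targets of the loop were higher in colonized colon, and the activators Arntl and Npas2 were lower. By the edgeR test Per2 alone passed, whereas DESeq2 called 7 members higher (Per2, Per3, Per1, Tef, Bhlhe40, Usp2 and Ciart) and 2 lower (Arntl and Npas2), and limma-voom called Per2. All 23 members of the clock list were tested, and 11 were higher and 3 lower at an unadjusted p under 0.05, beside 5.39% and 4.08% of all tested genes. The median log2 difference was 0.63, which is above the medians of each species against the shared controls, 0.49 for C. albicans and 0.22 for C. tropicalis. In 9 of the 23 every colonized library lay above every control, against 3.67% of all tested genes, and in 3 every colonized library lay below, against 3.11%. The list and the genes named from it were chosen with results of these libraries known, so these counts describe the members.

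Per3 had 18.7, 15 and 19.2 CPM in controls and 46.0, 34.8, 39.9, 50.1 and 34.2 CPM in colonized libraries, a log2 difference of 1.22 ± 0.17 (SE, edgeR adjusted p = 0.0878). Camta1, whose span covers Per3 on the same strand, carried 2286 counts against 4552. Per1, the most quickly induced of the family, had 90.7, 88.2 and 96.6 CPM in controls and 224, 208, 251, 181 and 138 CPM in colonized libraries. Its log2 difference of 1.13 ± 0.19 did not pass (adjusted p = 0.127). The bZIP activator Tef was at 80.7, 91.1 and 53.0 CPM against 195, 178, 189, 182 and 149 CPM. The repressor Bhlhe40 and the deubiquitinase Usp2, another output of the loop, had log2 differences of 0.77 ± 0.12 and 1.43 ± 0.22 (adjusted p = 0.109 and 0.120), with no overlap between groups. Ciart, a repressor of the BMAL1 complex, had 5.83, 6.25 and 2.91 CPM in controls, 29.6, 27.2 and 31.3 CPM with C. albicans and 13.0 and 12.1 CPM with C. tropicalis (log2 2.18 ± 0.42, adjusted p = 0.175). Both species lay above control for Ciart, at different distances.

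The activating limb lay on the other side of control. Arntl had 40.9, 37.4 and 48.2 CPM in controls, 14.1, 12.6 and 12.6 CPM with C. albicans and 23.4 and 21.3 CPM with C. tropicalis, a log2 difference of -1.33 ± 0.23 (edgeR adjusted p = 0.147). Npas2, which can stand in for CLOCK as its partner, had 36.0, 40.0 and 57.6 CPM in controls and 19.4, 17.9, 19.0, 26.4 and 18.6 CPM in colonized libraries (log2 -1.14 ± 0.18, adjusted p = 0.121). Neither gene's groups overlapped. Clock itself was at 39.3 to 44.3 CPM in controls and at 28.1 to 49.5 CPM in colonized libraries, which overlap, with a log2 difference of -0.10 ± 0.19. With the 2 species weighted equally in a 3-group fit, which takes species differences out of the spread, Arntl, Ciart and Per1 passed 0.05 beside Per2, Rbm14 and Hsph1, and so did Hspa8 and C2cd4a.

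For some clock members the libraries of the 2 species lay apart. Dbp, a bZIP activator with strong daily rhythm, had 40.9, 61.0 and 24.6 CPM in controls, 178, 168 and 161 CPM with C. albicans and 48.6 and 29.5 CPM with C. tropicalis. Its C. tropicalis libraries lay within the control range, and the pooled log2 difference was 1.47 ± 0.61 (adjusted p = 0.499). Nr1d1, which encodes the repressor REV-ERB alpha, was at 116 to 161 CPM in controls, 159 to 248 CPM with C. albicans and 91.8 and 49.1 CPM with C. tropicalis, so that its pooled difference of 0.06 ± 0.43 averages values on both sides of control and changes sign under several alternative settings. Cry1 stood at 22.0 to 27.7 CPM in controls, 20.6 to 37.4 CPM with C. albicans and 52.8 and 47.8 CPM with C. tropicalis. The direct test of C. tropicalis against C. albicans called 0 of 16107 genes (0%) at an adjusted p under 0.05, with 3744 at an unadjusted p under 0.05, and gave adjusted p of 0.0646 for Dbp, 0.0646 for Nr1d1 and 0.0646 for Arntl.

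**Figure D3:**
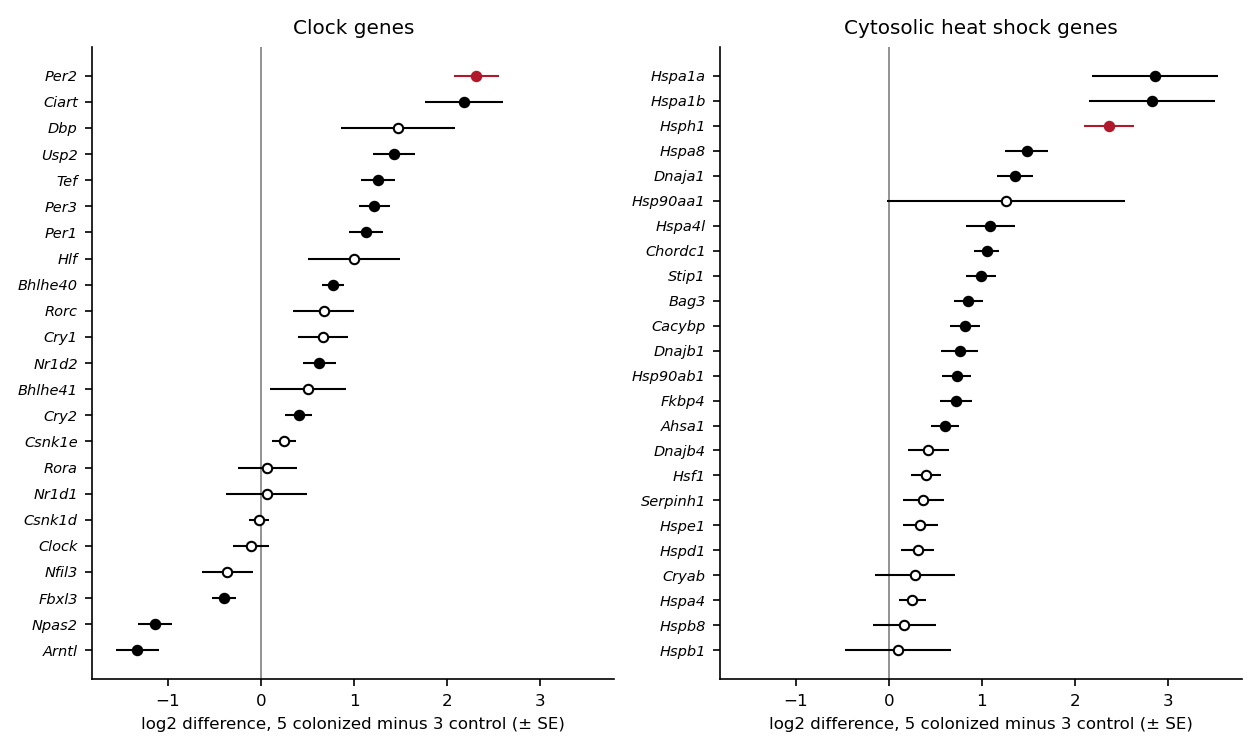
Log2 difference between 5 colonized and 3 control libraries, with its standard error as bars, for the 23 clock genes (left) and the 24 heat shock genes (right). Red marks genes with an adjusted p under 0.05 (Per2 and Hsph1). Filled points are genes whose groups did not overlap and open points those that did. All 24 heat shock genes lie to the right of 0, and clock genes run from -1.33 for Arntl to 2.31 for Per2.

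Cytosolic chaperones and their partners lay above control throughout the list. All 24 members were tested and all 24 lay above control, with a median log2 difference of 0.74. The edgeR test and limma-voom each called 1 member, Hsph1, while DESeq2 called 14, all higher, among them Dnaja1, Hspa8, Chordc1, Stip1, Bag3, Hsp90ab1, Hspa1a and Hspa1b. At an unadjusted p under 0.05, 15 were higher (5.39% of all tested genes) and 0 lower (4.08%), and in 14 every colonized library lay above every control (3.67% of all tested genes). Summed over the list, the level was 4000, 4856 and 4185 CPM in controls and 6795, 9795, 8617, 9819 and 8373 CPM in colonized libraries. Much of that sum is Hspa8 (mean 924 CPM in controls, 2578 CPM in colonized libraries) and Hsp90ab1 (1294 and 2143 CPM). It also holds Hsp90aa1, which differed between the rRNA sets, at 7.95 to 177 CPM in controls and 13.6 to 500 CPM in colonized libraries. The members of this list, too, were described with earlier results of the data known.

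Of the HSP70 family, Hspa8, the constitutive form, had 784, 1038 and 951 CPM in controls, 1737, 2243 and 2496 CPM with C. albicans and 3503 and 2910 CPM with C. tropicalis (log2 1.48 ± 0.23, edgeR adjusted p = 0.120). The inducible forms Hspa1a and Hspa1b had the largest log2 differences of the list, with a wide spread among colonized libraries. Hspa1a was at 23.9, 25.4 and 28.6 CPM in controls, 254, 377 and 168 CPM with C. albicans, and 113 and 31.2 CPM with C. tropicalis. Hspa1b was at 75.2, 87.0 and 65.4 CPM in controls, 633, 1124 and 520 CPM with C. albicans, and 324 and 90.7 CPM with C. tropicalis. C. tropicalis 2 was barely above the highest control for both, and the log2 differences of 2.86 ± 0.68 and 2.83 ± 0.68 did not pass (adjusted p = 0.299 and 0.303). The pair are near-identical copies, so counting may have split reads between them.

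Several co-chaperones had no overlap between groups. Dnaja1, an HSP40 that feeds clients to HSP70, had 106, 122 and 75.9 CPM in controls and 212, 323, 278, 261 and 224 CPM in colonized libraries, a log2 difference of 1.36 ± 0.20. Smu1 overlaps it on the other strand with 6545 counts against 28315. Chordc1 was at 28.6, 28.9 and 22.8 CPM against 47.9, 63.7, 51.2, 59.8 and 54.7 CPM (log2 1.05 ± 0.14, edgeR adjusted p = 0.0834). Stip1, which bridges HSP70 and HSP90, and Bag3, an HSP70 partner in selective autophagy, had log2 differences of 0.99 ± 0.16 and 0.86 ± 0.16 (adjusted p = 0.121 and 0.152) with no overlap. Hsf1, the factor that drives the response, had 47.5, 44.5 and 72.5 CPM in controls and 66.6 to 78.7 CPM in colonized libraries, which overlap.

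Of the HSP90 pair, only Hsp90aa1 is among the 21 genes that differed between the rRNA sets. Hsp90ab1 had 1205, 1325 and 1353 CPM in controls and 1619, 2065, 2238, 2520 and 2271 CPM in colonized libraries (log2 0.73 ± 0.16, edgeR adjusted p = 0.265). Hsp90aa1 had 7.95 CPM in control 1 against 13.6 and 16.6 CPM in C. albicans 1 and 3, the libraries with few rRNA counts. In the others it had 177 and 154 CPM in controls against 409, 500 and 413 CPM in C. albicans 2 and both C. tropicalis libraries. Over all 8 libraries the log2 difference was 1.26 ± 1.28 with overlapping groups, and with the rRNA set as a term it was 1.25 ± 0.16 (adjusted p = 0.110).

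Genes of the unfolded protein response, which refold or remove proteins in the endoplasmic reticulum, formed a further list in which the edgeR test called 0 and DESeq2 5, all higher (Hspa5, Creld2, Hyou1, Manf and Syvn1). Of 26 tested, 24 lay above control and 2 below, 10 were higher (5.39% of all tested genes) and 0 lower (4.08%) at an unadjusted p under 0.05, and in 8 the groups did not overlap, all higher (3.67%), with a median log2 difference of 0.24. Hspa5 had 270, 311 and 256 CPM in controls and 473, 515, 690, 650 and 605 CPM in colonized libraries (log2 1.07 ± 0.16, edgeR adjusted p = 0.0966). Creld2 and Hyou1, secreted and luminal factors of the same response, had log2 differences of 1.13 ± 0.21 and 0.97 ± 0.19 (adjusted p = 0.160 and 0.175).

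Other RNA-binding genes of the list that holds Rbm14 lay on both sides of control, and by the edgeR test only Rbm14 was called. Of 18 tested members of the RNA-binding, paraspeckle and cold-inducible list, 7 were above and 11 below control, with a median of -0.08. Sfpq, a paraspeckle protein, had 123, 124 and 161 CPM in controls and 216 to 255 CPM in colonized libraries (log2 0.80 ± 0.13, edgeR adjusted p = 0.121). The cold-inducible Cirbp lay below control without overlap, with a log2 difference of -0.84 ± 0.20 (adjusted p = 0.304). DESeq2 also called Sfpq higher and Cirbp lower.

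Immediate early genes, which respond within minutes to growth and stress signals, were mostly above control: 21 of 26. Of these, 6 had an unadjusted p under 0.05, beside 5.39% of all tested genes that were higher at that p. The edgeR test called 0 and DESeq2 4, all higher (Maff, Klf4, Fosb and Fosl1). The list median was 0.40 for C. albicans and 0.0057 for C. tropicalis against the shared controls, and the summed level of C. tropicalis 2 (2881 CPM) lay within that of controls (2677 to 3032 CPM), below the 3871 to 4305 CPM of the other colonized libraries. Maff and Klf4, a small MAF factor and an epithelial differentiation factor, had log2 differences of 0.84 ± 0.15 and 0.74 ± 0.16 (edgeR adjusted p = 0.147 and 0.240) without overlap. Fosb was at 7.09, 10.2 and 15.1 CPM in controls and 18.5 to 34.5 CPM in colonized libraries. Hypoxia and glycolysis genes had 25 of 30 above control and a median of 0.21. At an unadjusted p under 0.05, 8 were higher (5.39% of all tested genes) and 1 lower (4.08%). P4ha1, a collagen prolyl hydroxylase, and Hif1a, the oxygen-regulated factor, differed by 0.91 ± 0.16 and 0.72 ± 0.16 (edgeR adjusted p = 0.147 and 0.262). DESeq2 called both higher, and no other member of that list. Glucocorticoid-responsive genes, 20 tested, had a median of 0.08. The edgeR test called 0 of them, and DESeq2 called Per1 higher and Sgk1 lower. At an unadjusted p under 0.05, 3 were higher (5.39% of all tested genes) and 3 lower (4.08%).

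Genes of sterol synthesis and fatty acid oxidation lay mostly below control. The edgeR test called 0 of either list, and DESeq2 called 4 sterol genes (Insig1, Fdps, Hmgcs1 and Fdft1) and Slc25a20 lower. In the cholesterol list 21 of 25 lay below control, with a median of -0.23. At an unadjusted p under 0.05, 5 were lower (4.08% of all tested genes) and 0 higher (5.39%). The summed level of that list was 4214 CPM in control 2, against 3197 and 3099 CPM in controls 1 and 3 and 2736 to 3526 CPM in colonized libraries, so that the groups overlap and control 2 stands above all others. Insig1, a sterol-responsive brake on SREBP processing, had 174, 251 and 170 CPM in controls and 119, 88.5, 114, 110 and 91.7 CPM in colonized libraries (log2 -0.92 ± 0.16, edgeR adjusted p = 0.147). Fdps, an enzyme of isoprenoid synthesis, had 5.49, 6.07 and 6.30 CPM against 1.97 to 3.42 CPM. In the fatty acid oxidation list 20 of 27 lay below, and the median was -0.19. At an unadjusted p under 0.05, 7 were lower (4.08% of all tested genes) and 0 higher (5.39%). Slc25a20, the mitochondrial carnitine carrier, had 225, 214 and 210 CPM in controls and 154, 117, 136, 116 and 149 CPM in colonized libraries (log2 -0.69 ± 0.12, adjusted p = 0.152). Ypel2, outside these lists, was at 19.0 to 31.9 CPM in controls and 8.16 to 12.1 CPM in colonized libraries (log2 -1.23 ± 0.21, adjusted p = 0.147).

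Of 14 readouts of antifungal and mucosal defence 9 could be tested, of which the edgeR test and limma-voom called 0 and DESeq2 1, Duox2. Il22 had 0 counts in all 8 libraries, under a floor of 3 counts (0.152 to 0.185 CPM), and Il17a had 1 count in all, S100a8 6, Reg3b 19 and Reg3g 81, too few to be tested. Floors and counts of this size cover counting error only. Clec7a, which encodes the beta-glucan receptor dectin-1, was at 1.89, 1.61 and 2.53 CPM in controls and 0.912 to 1.52 CPM in colonized libraries (log2 -0.77 ± 0.28, edgeR adjusted p = 0.456). Duox2 and its maturation factor Duoxa2, which make hydrogen peroxide at the epithelial surface, were higher without overlap (3.67% of all tested genes). Neither passed the edgeR test. DESeq2 called both higher, 2 of the 25 tested antimicrobial and barrier effectors, against 1.23% of the genes to which it gave an adjusted p. Duox2 had 65.7, 47.1 and 48.8 CPM in controls, 107, 150 and 237 CPM with C. albicans and 85.1 and 74.9 CPM with C. tropicalis (log2 1.28 ± 0.37, adjusted p = 0.369), and Duoxa2 differed by 1.15 ± 0.27 (adjusted p = 0.281). Card9, Lcn2, Nos2, Muc2, Pigr and Igha had overlapping groups, with log2 differences between -0.11 for Pigr and 0.78 for Igha. Those of Pigr and Nos2 changed sign when a single control was left out. Retnlb, a goblet cell peptide, had 5.49, 0.953 and 0.215 CPM in controls, 1.07, 24.6 and 20.5 CPM with C. albicans and 0.0570 and 0.567 CPM with C. tropicalis. Its log2 differences from the shared controls were 2.80 ± 1.17 and -2.80 ± 1.70, on opposite sides, and the difference between species had an adjusted p of 0.104. Of the related lists, antimicrobial and barrier effectors had a median of 0.12 over 25 tested genes and tight and adherens junctions 0.11 over 27. Type 17 immunity had a median of 0.11 over 16, with 0 called by the edgeR test or DESeq2. At an unadjusted p under 0.05, 3 were higher (5.39% of all tested genes) and 0 lower (4.08%). The summed level of the type 17 list was 656 to 779 CPM in controls and 855 to 1091 CPM in colonized libraries, without overlap. Il17rc alone made up 229 to 303 CPM of that sum in controls and 293 to 528 CPM in colonized libraries. Of the 16 tested members 9 lay above and 7 below control, and in 0 did every colonized library lie above every control. Il17rc, a subunit of the IL-17 receptor, and Zc3h12a, a ribonuclease that degrades inflammatory transcripts, had log2 differences of 0.68 ± 0.19 and 0.85 ± 0.25 with overlapping groups.

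Lists that mark other cells of the colon wall varied between libraries within each group, and their part in the results above was not tested beyond the smooth muscle covariate. B cell and follicle genes had the lowest median of the 42 lists, -1.48 over 23 members, with 21 below control. At an unadjusted p under 0.05, 7 were lower (4.08% of all tested genes) and 1 higher (5.39%). In 0 did every colonized library lie below every control, against 3.11% of all tested genes. The list's summed level was 134, 613 and 722 CPM in controls and 302, 182, 287, 317 and 361 CPM in colonized libraries. Control 1 thus lay below all of the colonized libraries, and controls 2 and 3 above. Blnk, a B cell linker also expressed outside B cells, was the member higher without overlap (log2 0.65 ± 0.12, edgeR adjusted p = 0.152). It was the only member that DESeq2 called, against 1.23% of all genes with a DESeq2 adjusted p called higher. MHC class II genes had a median of -0.51, and their summed level was 1011 CPM in control 1, 2051 and 2120 CPM in controls 2 and 3 and 948 to 1587 CPM in colonized libraries. T cell genes had a median of -0.47, and their sum was 43.7 CPM in control 1, below every colonized library (52.4 to 69.4 CPM), and 95.5 and 94.2 CPM in controls 2 and 3. Smooth muscle genes had a pooled median of 0.20 with 21 of 23 above control, while the species values, which share the controls, were 0.66 for C. albicans and -0.95 for C. tropicalis. Enteric neurons and glia were at 0.62 and -0.81, tuft cells at 0.30 and -0.72, and cell cycle genes at -0.31 and 0.52. The smooth muscle score of the libraries as a covariate raised the number of called genes from 3 to 43 (37 higher, 6 lower), with Per2, Rbm14 and Hsph1 among them. That score, the centred mean log2 CPM of the list, was -1.08 and -0.86 with C. tropicalis and -0.03 to 1.33 with C. albicans. Among colonized libraries, muscle content and species therefore cannot be told apart in this covariate.

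**Figure D4:**
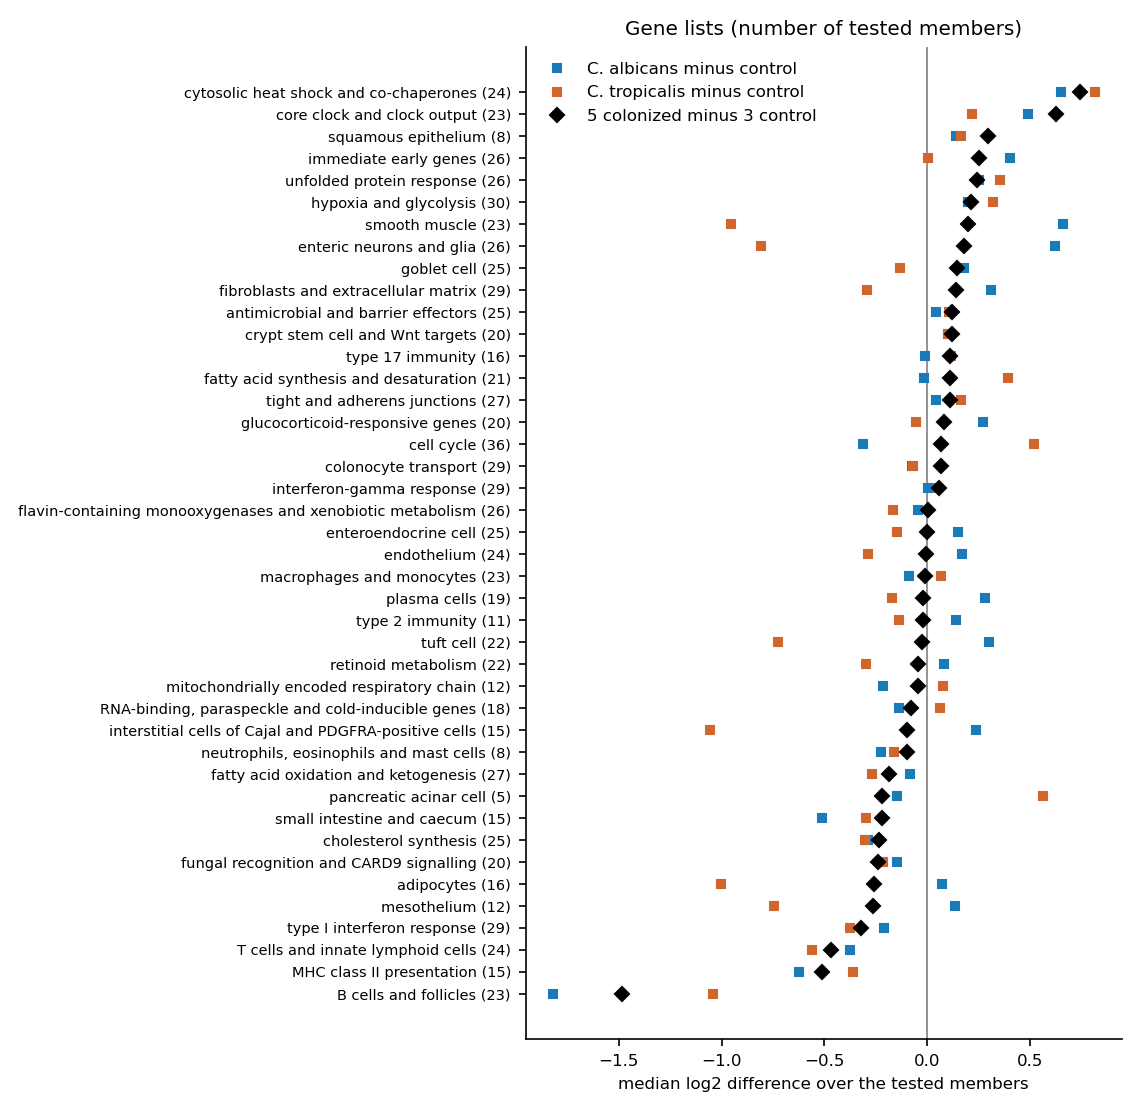
Median log2 difference over the tested members of each of 42 gene lists, for all 5 colonized libraries against control (black) and for each species against the same 3 controls (blue and orange). Heat shock (0.74) and clock (0.63) genes lie highest and B cell genes (-1.48) lowest, and smooth muscle, enteric neuron and tuft cell lists have species medians on opposite sides of 0.

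For the 3 called genes each species' own difference from the shared controls can be set side by side. Per2 differed by 2.09 ± 0.20 with C. albicans and by 2.60 ± 0.22 with C. tropicalis, on the log2 scale with SE. Hsph1 differed by 2.48 ± 0.28 and 2.19 ± 0.29, and Rbm14 by 1.18 ± 0.13 and 1.41 ± 0.15. The direct difference, C. tropicalis minus C. albicans, was 0.51 for Per2, -0.28 for Hsph1 and 0.23 for Rbm14, with edgeR adjusted p of 0.197, 0.615 and 0.391. Of the 12 genes past 0.1, 2 had an unadjusted p under 0.05 for that difference, Per2 and C2cd4a, and the smallest adjusted p was 0.103, for C2cd4a. Failing that test does not show that the species act alike.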

How the data were processed

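RNA sequencing measured gene expression in 8 colon libraries made, per the labels, from total RNA with the NEBNext Ultra kit, which does not keep strand. Per the submitters' processing notes, the authors used TopHat2 2.0.12, HTSeq (written as 6.1) and DESeq 1.18.0 with mm10. The deposited values are raw counts of reads per gene for 52636 Ensembl identifiers, of which 52403 matched a symbol in GENCODE M21. The other 233 carried 0.00317% of counts. No 2 libraries of the same group agreed within sampling noise.

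From these counts, genes were filtered with filterByExpr on the 2 pooled groups, scaled by TMM and tested with edgeR 4.0.16 (quasi-likelihood, R 4.3.3) with colonized against control as the only term, and Benjamini-Hochberg adjustment over 15704 genes (36932 not tested). The common biological coefficient of variation was 0.300. A second fit with 3 groups (16107 genes) gave each species' values and their difference. Script steps were tested on simulated data. Differences are log2 values from the fit, and the deposited counts themselves are not on a log scale. DESeq2 1.42.0 and limma 3.58.1 (voom) were alternatives, with other scalings, filters, a replicate block, a smooth muscle covariate, each library left out, and, added after the data were seen, the rRNA set (divided at 500 CPM) as a term and its 5 libraries alone.

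The comparison, the 42 gene lists and the tests were chosen with earlier results of these data known. Genes were named by rule: up to 15 called in each direction by p, the 5 largest folds among them, the 5 lowest p in a direction with under 5 calls, up to 4 called or else 2 members by p of each list, 14 readouts, and genes called for opposite species effects (0 found). A mean of 1 CPM was needed for the first rules. Banp, Coq10b, C2cd4a and the clock, heat shock, RNA-binding and immediate early genes outside that rule were chosen after their values were seen, as was Hyou1. List medians are over tested members only.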

Additional observations from a re-analysis of the deposited data

Results flagged for a closer look

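Among the 5 colonized libraries, the gap from the highest or lowest library to its nearest neighbour was divided by the whole range and compared with Dixon's critical value, over the named genes and the list scores (mean log2 CPM of a list, centred on the 8 libraries). Chance alone passes that value in about 1 in 20 sets, and 12 of the 165 sets tested passed it. C. albicans 2 stood apart in 6 of them, with a B cell and follicle score of -1.99, a type 2 immunity score of 0.378, Ptpn6 at 35.9 CPM, Usp2 at 51.7 CPM, Reg3g at 1.89 CPM and Reg3b at 0.788 CPM. Its B cell score, Ptpn6 and Usp2 were the lowest of the colonized libraries, and its type 2 score, Reg3g and Reg3b the highest. C. albicans 1 was highest for Derl3 (6.92 CPM), Mertk (38.0 CPM), Zg16 (3381 CPM) and S100a8 (0.225 CPM). C. tropicalis 1 was highest for Npas2 (26.4 CPM), still below the lowest control at 36.0 CPM, and C. tropicalis 2 held the single count of Il17a (0.0566 CPM). Reg3b, S100a8 and Il17a rest on a handful of counts.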

How the results depend on the processing

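The 3 edgeR calls became 2 with DESeq2 or upper-quartile factors and with limma-voom, 3 with a stricter filter, 16 (all higher) with no filter, 192 (152 higher, 40 lower) by the DESeq2 test, which gave no adjusted p for 3356 genes, 8 (7 higher, 1 lower) in the 3-group fit, 43 (37 higher, 6 lower) with the smooth muscle score, 12 (all higher) at a threshold of 0.1, and 0 with a minimum fold of 1.5, with the rRNA set as a term or within the 5 libraries with more rRNA counts. Leaving out 1 library gave 0 to 2 calls, all higher, with 1087 to 1813 genes at an unadjusted p under 0.05. Whether the labels' replicate numbers pair the samples was not settled. Deviations of same-numbered libraries correlated at -0.40 to 0.17 across genes. Such values cannot exclude pairing, and the 2 C. tropicalis libraries deviate from their own mean as mirror images. A fit with the replicate block called 0 genes, with 1383 at an unadjusted p under 0.05. The species difference called 0 genes with and without that block. Under these alternatives none of the 3 called genes changed sign. Signs that changed were those of Nr1d1 (-0.14 by limma-voom, -0.26 in the 3-group fit, -0.056 with the smooth muscle score, -0.066 with the rRNA term, -0.45 in the 5 libraries, -0.18 to 0.28 with 1 library left out), Clock (0.031 in the 5 libraries, -0.21 to 0.0012 with 1 left out), the gene Retnlb (-0.001235 in the 3-group fit), Card9 (-0.10 in the 5 libraries), Nos2 (-0.25 in the 5 libraries, -0.21 to 0.55 with 1 left out), and, with 1 left out, Pigr (-0.27 to 0.13), Zg16 (-0.40 to 0.10) and Hspb6 (-0.041 to 0.74). On the gene's own strand the D-box share was 0.448% of windows, because that motif is not a palindrome. The cause of the other changes was not tested. Depth limits Il22, Il17a, S100a8, Reg3b and Reg3g.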
